A study of Mus musculus with 6 samples.

Results

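Homeobox genes and their PAX relatives were followed in ribosome-bound RNA from the thalamus of mice that carry a tagged ribosome under the name of Cbln1. Members were all gene symbols of the HOX, LIM (Lhx, Lmx1, Isl), POU, sine oculis, IRX, DLX, PAX, OTX, PITX, NKX, EMX, EN, BARHL, TALE (Meis, Pbx) and Prox1 families in the count files, 126 of 32531 named genes. They were taken by symbol, but the families were chosen with earlier results of these data known. PAX genes were taken as a whole family, although Pax1 and Pax9 have no homeobox and Pax2, Pax5 and Pax8 only part of one. Of the 126, 58 had enough counts to be tested, 45 had some counts but too few, and 23 had 0 counts in all libraries.

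Animals of the NIDA030 line (Cbln1-EGFP/Rpl10a) were adult, untreated controls, and in this line green fluorescent protein is fused to the ribosomal protein Rpl10a. All libraries came from this line, 3 after pull-down of the tagged ribosomes with antibodies against the tag (IP) and 3 called Input, and no group lacked the transgene. The labels name the thalamus as tissue, while the names of the deposited tables point to the parafascicular nucleus, a nucleus of the intralaminar thalamus, and the sources used here do not settle how much of the thalamus was taken. The labels do not say how many animals stand behind a replicate, and do not say which thalamic cells carry the tag. Unless each replicate is a separate animal, the p-values reflect only how these samples vary, which may be technical. Cbln1 itself had 1361, 1428 and 1496 CPM in IP and 68.9, 83.2 and 87.2 CPM in Input, so that the gene named in the line stood far higher in IP in each library.

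Homeobox genes encode transcription factors that grip DNA with a helix lying in the major groove, and in the embryo their overlapping domains divide the neural tube from forebrain to spinal cord. HOX genes number the segments of hindbrain and spinal cord, OTX, EN and PAX genes lay out the midbrain and its border, and LIM, DLX, sine oculis and NKX genes separate thalamus, prethalamus, hypothalamus and telencephalon. Many stay on in adult neurons, where they help to keep a cell's type. TALE proteins of the MEIS and PBX families bind DNA together with HOX and other homeodomain proteins.

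The coding sequence of the homeobox is shown for 2 pairs of close relatives on which the results below turn: Lhx2 and Lhx9, which were both higher in IP, and Meis2 with Meis3, of which one was lower and the other higher. Capitals mark the 18 bases that encode tryptophan, phenylalanine, any residue, asparagine, any residue and arginine in the helix that reads DNA. Sequences are GENCODE coding sequence of mm10, and each stretch spans 2 exons (LIM pair) or 3 exons (TALE pair).
Lhx2: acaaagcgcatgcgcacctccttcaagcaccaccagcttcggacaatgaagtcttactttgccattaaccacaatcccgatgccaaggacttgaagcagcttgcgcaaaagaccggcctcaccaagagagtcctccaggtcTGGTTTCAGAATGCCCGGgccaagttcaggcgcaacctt
Lhx9: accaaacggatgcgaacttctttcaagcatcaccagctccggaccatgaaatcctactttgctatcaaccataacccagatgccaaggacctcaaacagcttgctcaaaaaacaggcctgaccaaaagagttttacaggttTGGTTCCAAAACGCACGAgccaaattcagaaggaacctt
Meis2: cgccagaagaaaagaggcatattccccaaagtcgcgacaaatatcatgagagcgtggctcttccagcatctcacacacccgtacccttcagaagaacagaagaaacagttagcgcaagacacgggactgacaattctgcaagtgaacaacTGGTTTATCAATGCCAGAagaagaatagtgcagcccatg
Meis3: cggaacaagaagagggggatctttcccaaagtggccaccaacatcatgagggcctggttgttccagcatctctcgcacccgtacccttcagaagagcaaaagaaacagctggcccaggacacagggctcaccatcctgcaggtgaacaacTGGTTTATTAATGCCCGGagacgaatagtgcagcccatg

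Lhx2 and Lhx9 had the same base at 143 of 180 positions (79.4%), and Meis2 and Meis3 at 155 of 189 (82.0%). The longest run without a difference was 12 and 20 bases in the 2 pairs. These homeoboxes lie on the plus strand of chromosome 2 at 38359966 to 38368883 (Lhx2), the minus strand of chromosome 1 at 138831583 to 138832839 (Lhx9), the minus strand of chromosome 2 at 115868767 to 116000205 (Meis2) and the plus strand of chromosome 7 at 16182394 to 16184074 (Meis3). Over whole transcripts, at most 0.19% of the 50-base words of Lhx2, Lhx9, Meis2 and Meis3 occurred in any other gene model. All 126 members matched 1 protein-coding gene of the annotation by symbol.

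In IP against Input, 7 of the 58 tested members were higher and 31 were lower, while 23.3% and 24.3% of all 16898 tested genes were called in these directions (edgeR, adjusted p under 0.05). Some members, among them Dlx4, Isl1, Irx3, Irx4 and Irx6, had enough counts to be tested through Input alone. Their direction was fixed by the filter, so their place among the 31 and in the median below is no result. Others of the 31 did not have enough counts in IP alone, so that the filter favoured a fall for them. Among these were Dlx1, En1, En2, Irx5, Lhx5, Lmx1a, Nkx2-9 and Pax3. The median log2 fold change was -2.04 over the members, also with Dlx4 (0 counts in IP) set at its bound, and -0.07 over all tested genes. Among the 34 members with a mean of at least 2 CPM (read counts scaled to the effective library size), 7 rose and 20 fell, where 30.6% and 21.2% of all genes at that level did so. Among the 24 members below 2 CPM, 0 rose and 11 fell, where 1.34% and 33.5% of all genes did so, so that falls were common among weakly counted genes as a whole. The ranges of the groups were separate for 8 members with IP on the higher side and 39 with IP on the lower side, against 27.9% and 33.7% of all genes. In bulk RNA of this kind, fewer ribosomes from a cell type and less of the RNA on each cell's ribosomes cannot be told apart.

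**Figure D1:**
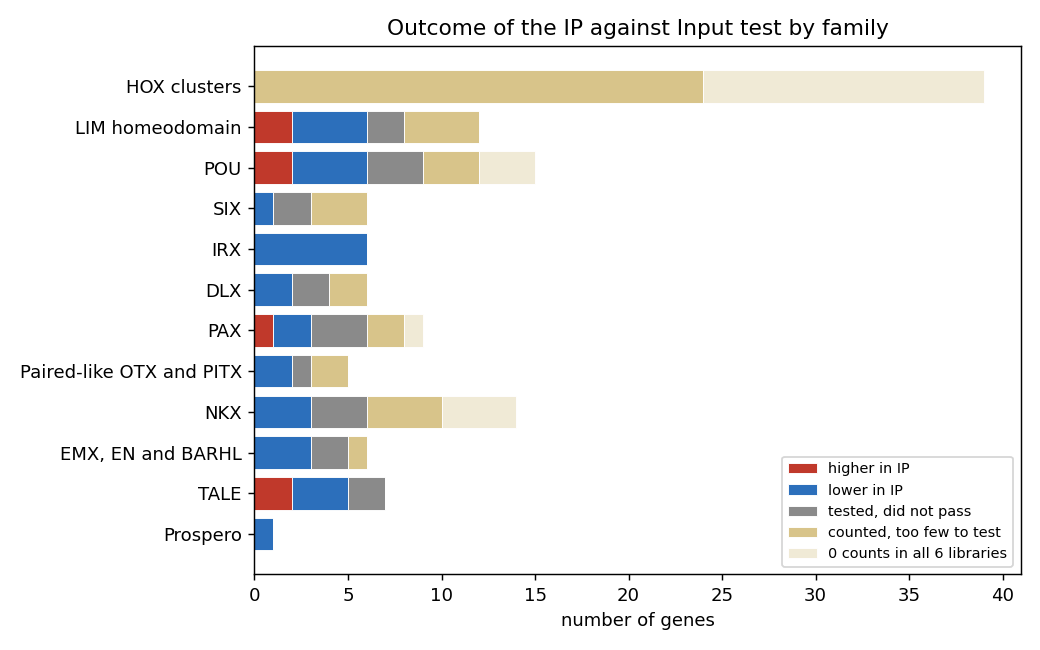
Number of members by family (bars, x axis: number of genes), divided into those higher in IP, lower in IP, tested without passing, counted but too few to test, and at 0 counts. All 39 HOX genes fall in the last 2 classes, all 6 IRX genes were lower in IP, and the 7 higher genes belong to the LIM, POU, PAX and TALE families.

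Marker genes of the tissues near the thalamus were checked beside the members. Summed CPM ran from 4302 to 4857 in IP and from 3032 to 3505 in Input for 6 markers of thalamic glutamatergic neurons, of which 3 rose and 1 fell. For 4 GABAergic markers the sums were 80.4 to 91.5 in IP and 613 to 839 in Input, for 4 midbrain dopamine markers 34.5 to 53.1 and 135 to 188, and for 6 oligodendrocyte markers 259 to 320.4 and 3187 to 3690. All members of these 3 lists fell. Replicates differed in what they held. The 6 hypothalamic markers summed to 22.1 CPM in IP replicate 1 and 27.9 CPM in Input replicate 1 but to at most 1.53 and 3.75 CPM in the other IP and Input libraries, with Avp and Oxt at 0 in IP. The 6 ependymal and choroid plexus markers, led by Ttr, summed to 5.54 and 24.1 CPM in replicate 1 of IP and Input and to 44.3 or more and 522 or more in the others. The smallest library held 23929070 counts on genes (Input replicate 1), the largest 57385828 (IP replicate 1).

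Among the LIM homeodomain genes, whose proteins join a homeodomain to paired zinc fingers that bind cofactors, 2 rose, 4 fell and 2 of 8 tested did not pass. Over all tested genes 23.3% rose and 24.3% fell. Lhx2, a selector gene of the embryonic forebrain and of the developing thalamus, had 120.4, 111 and 109 CPM in IP replicates 1 to 3 and 18.6, 27.7 and 22.7 CPM in Input. Every IP library lay far above every Input library, and the log2 fold change (log2FC) was 2.30 (SE 0.15, adjusted p = 5.78e-06), or 4.91-fold. Lhx9, its closest relative and also a gene of developing thalamic neurons, had 76.0, 56.3 and 66.1 CPM in IP and 36.6, 48.6 and 51.4 CPM in Input. The groups did not overlap, but the difference was small (log2FC 0.54, SE 0.16, adjusted p = 0.0198). It lost its call under upper-quartile scaling (adjusted p = 0.0915) and library totals (0.158), and without Input replicate 1 (0.0743) or replicate number 1 (0.101) or 3 (0.0640).

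Of the other 6 tested LIM genes, 4 fell, and Lhx6 and Lmx1b did not pass. Isl1, which marks motor, striatal, hypothalamic and prethalamic neurons, held 0, 1 and 1 counts in IP against 87, 94 and 92 in Input. By counts it was 146-fold lower in IP, with an exact 95% interval of 39.9 to 1208 that covers counting error only (adjusted p = 4.33e-04). Lmx1a, a gene of dopamine neurons and of the subthalamic and mammillary region, had 0.120, 0.174 and 0.329 CPM in IP and 7.13, 4.99 and 6.70 CPM in Input, a log2FC of -4.91 (SE 0.52, adjusted p = 7.70e-05). Lhx1 and Lhx5, related genes of prethalamic, mammillary and pretectal neurons, also fell: Lhx1 had 1.30, 1.20 and 1.29 CPM in IP and 8.93, 3.56 and 5.76 CPM in Input (-2.26, SE 0.42, adjusted p = 0.00218), and Lhx5 fell by 3.19 (SE 0.69, adjusted p = 0.00444). Lhx6, a gene of migrating interneurons and hypothalamic neurons, had 2.23 CPM in Input replicate 1 and 0.404 and 0.191 CPM in the others (adjusted p = 0.156). It was called lower without IP replicate 1 (adjusted p = 0.0153) and without replicate number 1 (0.0438). Lmx1b, needed by serotonin and dopamine neurons, had 112 counts in IP replicate 3 and 0 and 2 in the other IP libraries, and its sign turned without that library (0.67 with all libraries, adjusted p = 0.749, and -4.53 without it, adjusted p = 0.0219).

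**Figure D2:**
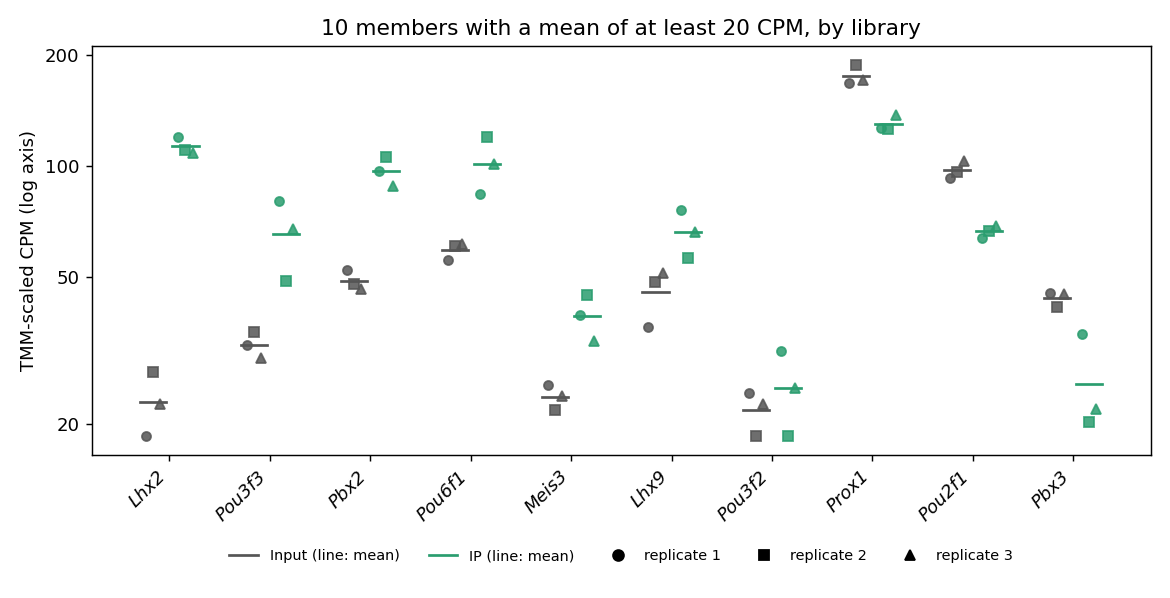
CPM in each library (log axis) of 10 members with a mean of at least 20 CPM, with Input in grey, IP in green, a marker shape for each replicate number and a line at the mean. Lhx2 shows the widest gap upward, Prox1 and Pou2f1 lie lower in IP in all 3 replicates, and Pou3f2 overlaps between the groups.

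TALE genes of the MEIS and PBX families went in both directions. Of 7, 2 rose, 3 fell and 2 did not pass, where 23.3% of all tested genes rose and 24.3% fell. The 6 IRX genes, which are also of the TALE class, were counted as a family of their own. All 6 fell, as given below. Pbx2, a broadly expressed cofactor of homeodomain proteins, rose 1.99-fold (log2FC 0.99, SE 0.11, adjusted p = 8.41e-05). It had 52.3, 48 and 46.3 CPM in Input and 97.2, 106 and 88.4 CPM in IP. Pbx3 had 35.0, 20.3 and 21.9 CPM in IP and 45.3, 41.5 and 44.9 CPM in Input. Its fall (-0.77, SE 0.20, adjusted p = 0.0111) lost its call without replicate number 2 (0.0660) or 3 (0.122). Pbx4 had 6.14, 8.48 and 11.1 CPM in IP and 6.03, 3.66 and 5.15 CPM in Input and did not pass (0.80, SE 0.30, adjusted p = 0.0553). It was called higher with limma-voom (0.0440) and without IP replicate 1 (0.0138) or replicate number 1 (0.0250).

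Meis genes, which partner PBX proteins, differed more widely. Meis2, a gene of striatal, prethalamic and other forebrain neurons, had 3.88, 1.02 and 1.22 CPM in IP and 26.2, 17.0 and 21.9 CPM in Input (log2FC -3.40, SE 0.48, adjusted p = 4.42e-04). Meis3 rose from 25.5, 21.8 and 23.7 CPM to 39.5, 44.7 and 33.5 CPM (0.73, SE 0.14, adjusted p = 0.00293). The groups were separate for both genes, in opposite directions. Meis1 had 0.160, 3.01 and 0.306 CPM in IP and 5.13, 5.66 and 5.30 CPM in Input. With IP replicate 2 in the fit it did not pass (-2.21, SE 0.91, adjusted p = 0.0717), and without it the fall was called (-4.52, adjusted p = 1.96e-04). It was also called with DESeq2 (0.0168), limma-voom (0.00475), the replicate block (0.00636) and without replicate number 2 (0.00335). About 18.3% of the exon bases of Meis1 lie under other gene models, so its count is less certain.

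POU genes pair a homeodomain with a second DNA-binding domain. Of 9 tested, 2 rose, 4 fell and 3 did not pass, where 23.3% of all tested genes rose and 24.3% fell. Pou3f3, a gene of upper-layer cortical and other forebrain neurons, had 80.5, 48.7 and 67.7 CPM in IP and 32.7, 35.5 and 30.1 CPM in Input (log2FC 1.0, SE 0.18, adjusted p = 0.00157). Pou6f1 rose in every library too, from 55.5, 60.7 and 61.4 CPM to 83.9, 119.8 and 101 CPM (0.78, SE 0.13, adjusted p = 0.00130). IP and Input were separate for both genes. Within the Pou3f group, Pou3f1, which is used by myelinating glia as well as neurons, fell from 6.27, 6.24 and 6.95 CPM to 0.260, 1.31 and 0.80 CPM (-3.04, SE 0.55, adjusted p = 0.00180), beside the fall of the oligodendrocyte markers given above, whose part in this was not tested. Pou3f2 had 31.5, 18.5 and 25.0 CPM in IP and 24.2, 18.5 and 22.6 CPM in Input (adjusted p = 0.452), with overlapping groups. Pou3f4 did not pass (-1.11, SE 0.64, adjusted p = 0.187) except without IP replicate 3 (0.0426).

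Pou4f1, which encodes BRN3A and marks the medial habenula and sensory neurons, had 13.9, 11.2 and 7.72 CPM in IP and 15.9, 25.1 and 28.9 CPM in Input. The fall (log2FC -1.09, SE 0.27, adjusted p = 0.00918) lost its call without replicate number 2 (0.0729) or 3 (0.109). Of the 6 habenular markers 5 also fell, with sums of 166, 134 and 139 CPM in IP and 155, 217 and 268 CPM in Input replicates 1 to 3. Their part in the fall of Pou4f1 was not tested. Pou2f1, the ubiquitous OCT1, fell from 93.2, 96.6 and 103 CPM to 64.0, 66.9 and 69.0 CPM (-0.55, SE 0.09, adjusted p = 0.00107), and 18.1% of its exon bases lie under another gene model, Cd247. Pou2f2 overlapped between groups, with 13.4, 8.28 and 7.22 CPM in IP and 11.6, 7.55 and 11.8 CPM in Input (adjusted p = 0.805).

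Prox1, the single prospero gene, is known in the brain from dentate granule cells and some interneurons and elsewhere from lymphatic vessels. It was abundant in both groups, with 127, 126 and 138 CPM in IP and 168, 189 and 172 CPM in Input, and fell slightly (log2FC -0.43, SE 0.09, adjusted p = 0.00314).

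Per kilobase of merged exon, levels of different genes can be set side by side only roughly. The length takes in the exons of every annotated transcript, and the annotation used in counting is not given. On this scale Pbx2 (26.7 CPM per kilobase) and Lhx2 (25.8) stood high in IP, above Prox1 (15.6), Pou6f1 (14.6), Meis3 (12.4), Pou3f3 (8.86) and Lhx9 (6.97). In Input the order of these and other abundant members was Prox1 (21.0), Pbx2 (13.4), Pou6f1 (8.52), Meis3 (7.46), Pbx3 (7.18), Pou2f1 (5.88) and Lhx2 (5.23). By these means Lhx2 came after Prox1, Pou6f1, Meis3, Pbx3 and Pou2f1 in Input and before them in IP. The Input libraries of Lhx2 (4.2 to 6.3) and Pou2f1 (5.6 to 6.2) overlapped, however. Neighbours in the IP order often shared their range: Pbx2 had 24.3 to 29.0 CPM per kilobase over the 3 libraries and Lhx2 24.7 to 27.4, and Prox1 (15.1 to 16.5) lay within the range of Pou6f1 (12.1 to 17.2). Lhx9 (5.93 to 8.01) overlapped Pou3f3 (6.58 to 10.9).

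**Figure D3:**
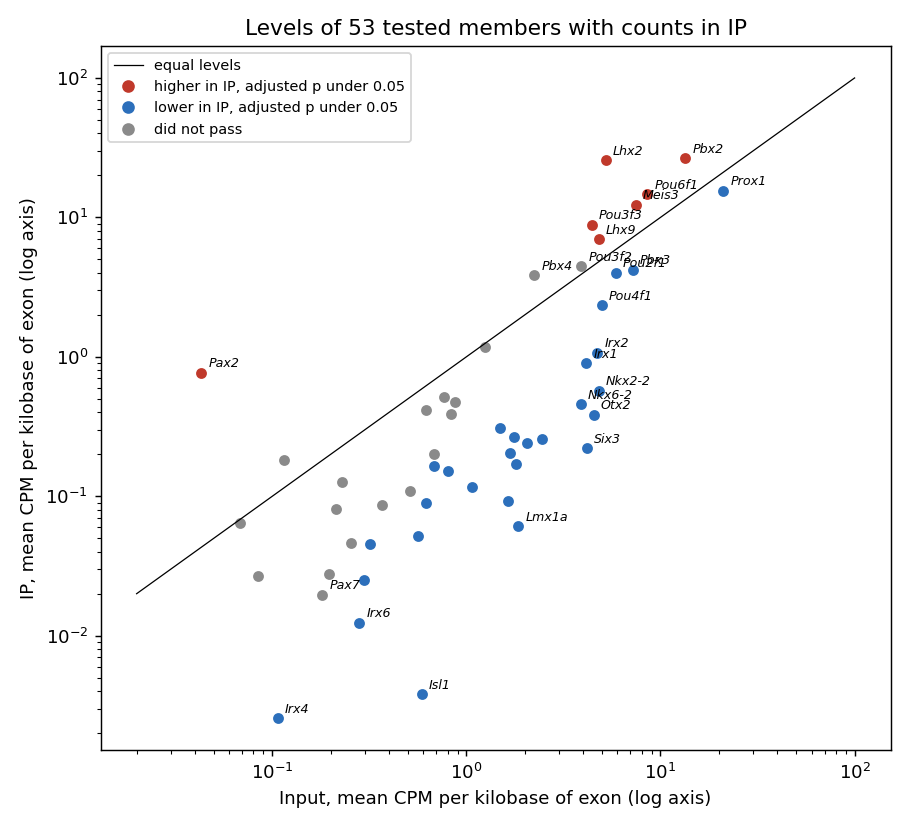
Mean CPM per kilobase of exon in Input (x) and IP (y), both on log axes, for 53 tested members with counts in IP, with the line of equal levels. Higher genes other than Pax2 sit at the abundant end, and most lower genes sit at or below 5 CPM per kilobase in Input.

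PAX genes were weakly counted, and 1 rose, 2 fell and 3 of 6 tested did not pass. Over all tested genes 23.3% rose and 24.3% fell. Pax2, which helps to set up the border of midbrain and hindbrain and later marks inhibitory interneurons of cerebellum and spinal cord, held 344, 161 and 89 counts in IP and 10, 1 and 15 in Input. This came to 6.88, 3.51 and 2.09 CPM in IP and 0.392, 0.0193 and 0.287 CPM in Input, with no overlap. The log2 fold change was 4.21 (SE 0.91, adjusted p = 0.00451), the largest rise among the tested members. With 1 count in Input replicate 2, Pax2 had enough counts to be tested only through IP. The filter thus favoured a rise, and its rank among the members is no separate result. The gene lies on the plus strand of chromosome 19 at 44756045 to 44837871 (mm10), with 0% of its exon bases under another gene model. Over all alternatives it lay between 3.63 and 4.84, with adjusted p of 0.0286 or less. Among the IP libraries replicate 1 was highest and replicate 3 lowest. In the same libraries the 4 GABAergic markers fell, as given above.

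Pax6, a gene of the embryonic forebrain and of adult zona incerta neurons, had 4.16, 1.40 and 0.259 CPM in IP and 8.27, 8.09 and 7.64 CPM in Input. The fall (log2FC -2.04, SE 0.72, adjusted p = 0.0432) lost its call when IP replicate 2, a single Input library, or both libraries numbered 2 or 3 were left out (adjusted p between 0.0755 and 0.202). Its relatives Pax3 and Pax7 belong to the dorsal midbrain and pretectum. Pax3 fell by 2.80 (SE 0.99, adjusted p = 0.0421) and lost its call without IP replicate 1 or 3, any 1 Input library, or replicate number 1 or 3 (0.0543 to 0.193). Pax7 had 0.280, 0.0654 and 0 CPM in IP and 1.53, 1.16 and 0.498 CPM in Input and did not pass (adjusted p = 0.0552), but it was called lower under upper-quartile scaling, library totals, DESeq2, limma-voom, the replicate block and without IP replicate 1 or replicate number 1 (0.00953 to 0.0477). Pax5 (adjusted p = 0.303) and Pax8 (0.959) overlapped between groups.

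Of 9 tested members listed for the prethalamus, reticular nucleus and zona incerta, 7 fell (Dlx1, Six3, Isl1, Lhx1, Lhx5, Pax6 and Meis2), 0 rose, and Dlx2 and Dlx5 did not pass. Of all tested genes 24.3% fell, and 33.5% of those under 2 CPM. Isl1, Dlx1 and Lhx5 had enough counts to be tested only through Input, so that the filter favoured a fall. The calls of Dlx1 and Pax6 were not stable. Six3, a sine oculis gene kept in reticular nucleus neurons, had 0.880, 1.57 and 1.15 CPM in IP and 29.0, 20.4 and 18.7 CPM in Input, 18.9-fold apart (log2FC -4.24, SE 0.29, adjusted p = 8.14e-06). Six4 had 5.18, 3.12 and 5.13 CPM in IP and 6.31, 7.93 and 5.95 CPM in Input and did not pass (-0.59, adjusted p = 0.134) except under library totals (0.0428), and Six5 did not pass either (adjusted p = 0.192). DLX genes direct GABAergic neurons of the basal forebrain and prethalamus. Dlx4 had 0 counts in all IP libraries and 15, 33 and 15 in Input, at least 22.4-fold lower in IP against a floor of 3 counts over the group (adjusted p = 0.00430). Dlx1 fell by 3.51 (SE 1.23, adjusted p = 0.0400) and lost its call when IP replicate 2, a single Input library, or both libraries numbered 2 or 3 were left out (0.0681 to 0.210). Dlx2 (-2.44, adjusted p = 0.155) was called with limma-voom (0.0280) and without IP replicate 3 (0.00710) or replicate number 3 (0.0266). Dlx5 had 80, 0 and 68 counts in IP and 50, 104 and 102 in Input (adjusted p = 0.546).

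All 6 IRX genes, which are grouped in clusters and are expressed in the embryo from the thalamus backwards, fell. Irx3, Irx4 and Irx6 were tested through Input alone, so that their direction was fixed by the filter. Irx5 did not have enough counts in IP alone either, so that the filter favoured its fall. Irx2 had 3.54, 4.08 and 2.92 CPM in IP and 13.9, 15.6 and 17.0 CPM in Input (log2FC -2.14, SE 0.22, adjusted p = 6.60e-05). Irx1 had 2.30, 0.872 and 3.88 CPM in IP and 10.1, 11 and 11.5 CPM in Input (-2.21, SE 0.46, adjusted p = 0.00361). Both kept clear counts in IP, whereas Irx3 (-3.41, adjusted p = 0.00613), Irx5 (-2.39, adjusted p = 0.0201) and Irx6 (-4.39, adjusted p = 0.00905) stayed under 1 CPM in each IP library. Irx4 held 1 count in IP and 33 in Input, a 35.2-fold difference with an exact 95% counting interval of 5.89 to 1432 (adjusted p = 0.0106). Irx5 lost its call without any 1 Input library or any 1 replicate number (0.0555 to 0.0773), Irx6 without Input replicate 2 (0.0548) or replicate number 2 (0.0533), and Irx4 with the replicate block (0.0610) or without replicate number 3 (0.0504). Among the 6 members listed for the thalamus, Lhx2 and Lhx9 therefore rose and Irx1, Irx2, Irx3 and Irx5 fell. Over all tested genes 23.3% rose and 24.3% fell. The falls of Irx3 and Irx5 were favoured by the filter, and the calls of Lhx9 and Irx5 were not stable.

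Of 9 tested members listed for the midbrain and pretectum, 4 fell (Otx2, En1, En2 and Pax3), 1 rose (Pax2), and Pax5, Pax7, Pax8 and Nkx6-1 did not pass. Of all tested genes 24.3% fell and 23.3% rose, and 33.5% of those under 2 CPM fell. En1, En2 and Pax3 had enough counts to be tested only through Input, and Pax2 only through IP. The filter thus favoured the direction of these genes. Otx2, which the adult brain uses in midbrain neurons and in the choroid plexus, had 2.44, 1.07 and 1.36 CPM in IP and 16.6, 20.6 and 20.02 CPM in Input (log2FC -3.55, SE 0.32, adjusted p = 3.47e-05). In Input replicates 1 to 3 the ependymal and choroid plexus markers summed to 24.1, 522 and 587 CPM, and their part in the Otx2 level was not tested. Otx1, listed for the telencephalon, fell from 8.07, 8.86 and 11.6 CPM to 1.06, 2.14 and 1.15 CPM (-2.71, SE 0.36, adjusted p = 3.13e-04). En1, an engrailed gene of midbrain dopamine and anterior hindbrain neurons, had 0.220, 1.48 and 0.188 CPM in IP and 6.19, 5.16 and 4.78 CPM in Input (-3.09, SE 0.77, adjusted p = 0.00897). The call was lost without replicate number 1 (0.0586) or 3 (0.0558). En2 fell by 2.78 (SE 0.65, adjusted p = 0.00678) and lost its call without Input replicate 3 (0.0550) or replicate number 3 (0.0690).

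Barhl2, of the diencephalon, had 0.340, 0.414 and 1.04 CPM in IP and 7.52, 4.54 and 4.96 CPM in Input (log2FC -3.25, SE 0.54, adjusted p = 0.00116), while Barhl1 did not pass (-1.38, adjusted p = 0.266). Emx2, a cortical and hypothalamic gene, had 1.36, 0 and 0.447 CPM in IP and 3.21, 1.81 and 1.11 CPM in Input (adjusted p = 0.252).

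NKX genes pattern the ventral brain, and some are reused in oligodendrocytes. Of 6 tested, 3 fell and 3 did not pass, where 24.3% of all tested genes fell. Nkx2-2, a gene of oligodendrocyte precursors and ventral neurons, had 1.38, 1.96 and 1.60 CPM in IP and 15.3, 13.9 and 12.3 CPM in Input (log2FC -3.07, SE 0.25, adjusted p = 1.96e-05). Nkx6-2, which is kept in myelinating oligodendrocytes, had 0.300, 0.981 and 1.34 CPM in IP and 8.46, 7.03 and 6.70 CPM in Input (-3.08, SE 0.52, adjusted p = 0.00120). About 12.9% of its exon bases lie under another gene model, Inpp5a, so its count is less certain. Beside them the 5 precursor markers summed to 15.9 to 25.3 CPM in IP and 227 to 229 CPM in Input, and their part in the fall was not tested. Nkx2-9 fell (-4.15, SE 1.16, adjusted p = 0.0156) but lost its call without Input replicate 1 (0.0622) or 2 (0.0544) or replicate number 2 (0.0977).

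Nkx2-1, the selector of hypothalamus and ventral telencephalon, followed the replicate more than the group. It had 3.22, 0.436 and 0.706 CPM in IP and 3.84, 0.732 and 1.99 CPM in Input (adjusted p = 0.615), highest in replicate 1 of each group, where the hypothalamic markers were highest too. Nkx6-1 did not pass (adjusted p = 0.526).

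**Figure D4:**
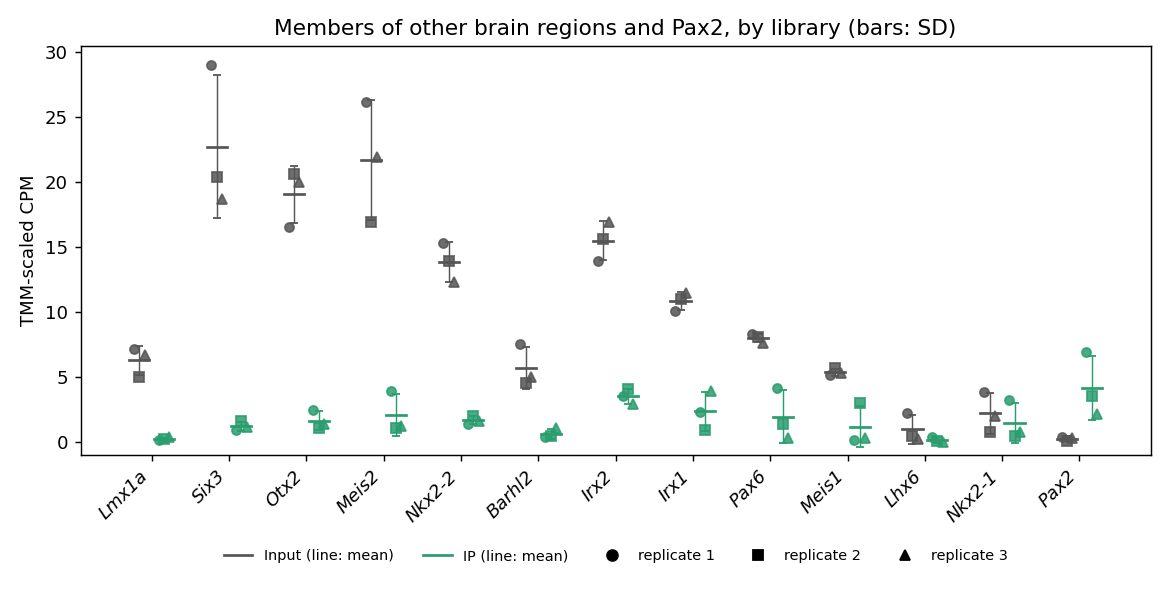
CPM in each library for 12 members and for Pax2, with Input in grey, IP in green, lines at the mean and bars of 1 SD (n = 3). Irx1 and Irx2 among them are listed for the thalamus itself. Input exceeds IP for the first 8 genes in every library, the IP spread is wide for Pax6 and Meis1, and Pax2 alone lies higher in IP.

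HOX genes were nearly absent from the counts. None of the 39 passed the filter, and 15 had 0 counts everywhere. The 39 together held 44, 9 and 32 counts in IP replicates 1 to 3 and 23, 28 and 47 in Input, and no HOX gene exceeded 23 counts in a library (Hoxd1 in IP replicate 1). The 4 serotonin and hindbrain markers were also low, with sums of 0.741 to 1.88 CPM in IP and 2.20 to 3.16 CPM in Input. Other untested members had at most 44 counts in a library. They included Isl2, Lhx3, Lhx4 and Lhx8 of the LIM family, Pou2f3, Pou4f2 and Pou5f2, Six2 and Six6, Dlx3 and Dlx6, Pax1 and Pax9, Pitx1 and Pitx3, Nkx1-2, Nkx2-4, Nkx2-6 and Nkx6-3, and Emx1. Pou1f1, Pou4f3, Pou5f1, Pax4, Nkx1-1, Nkx2-3, Nkx2-5 and Nkx3-2 had 0 counts in all 6 libraries.

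**Figure D5:**
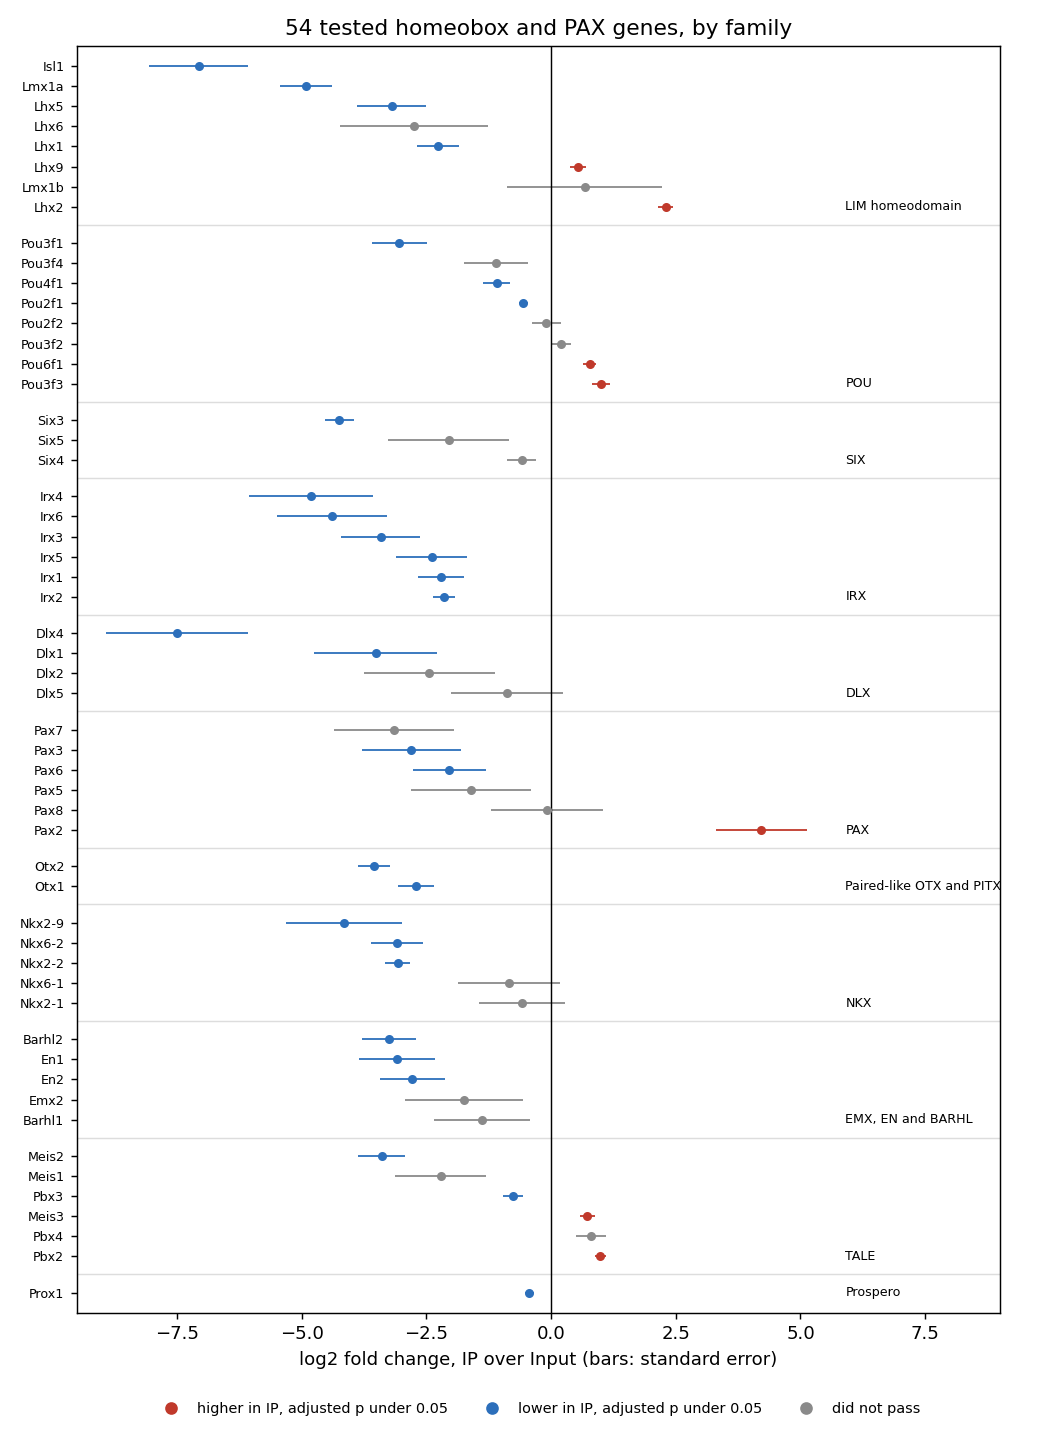
Log2 fold change of IP over Input (x axis) with its standard error for 54 of the 58 tested members, grouped by family and coloured by outcome. Points of the IRX, DLX, sine oculis, OTX, EMX, EN and BARHL genes all lie below 0, while LIM, POU, PAX and TALE genes lie on both sides.

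Proteins that work with homeodomains were read from lists of cofactors and other homeobox genes. Of 48 such genes tested, 10 rose and 19 fell, with a median log2 fold change of -0.38, where 23.3% of all tested genes rose and 24.3% fell. In the LIM and sine oculis cofactor list 3 of 16 rose and 8 fell. The LIM-only genes, which compete with LIM homeodomain proteins for the adaptor LDB, split widely: Lmo1 rose from 5.65 ± 0.518 to 46.2 ± 6.48 CPM (SD, n = 3, log2FC 3.03, SE 0.16, adjusted p = 2.20e-06) and Lmo4 from 28.0 ± 3.10 to 116 ± 40.8 CPM (2.05, SE 0.23), while Lmo3 fell from 52.2 ± 8.42 to 3.99 ± 0.852 CPM (-3.70, SE 0.21). Ssbp3, which stabilises LDB complexes, fell by 0.68 (SE 0.09, adjusted p = 3.19e-04).

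Groucho corepressors are recruited by sine oculis, NKX, PAX and other factors, and 3 of 6 tested rose and 3 fell. Beside this and the lists below, 23.3% of all tested genes rose and 24.3% fell. Tle1 went from 30.0 ± 2.24 to 83.7 ± 15.0 CPM (SD, n = 3, log2FC 1.48, SE 0.14) and Aes rose by 0.48 (SE 0.10), whereas Tle3 fell from 29.5 ± 1.09 to 10.8 ± 1.45 CPM (-1.46, SE 0.16) and Tle2 by 2.70 (SE 0.67). Of 5 further TALE genes none rose and 2 fell, led by Mkx (-3.14, SE 0.28, adjusted p = 3.13e-05). Among 21 other homeobox genes tested, 4 rose and 6 fell. Zhx1 (0.94, SE 0.09) and Adnp (0.61, SE 0.08), both broadly expressed zinc finger homeobox genes, rose, and Zeb2, which is strong in glia and interneurons (-3.40, SE 0.16), and Zeb1 (-0.50, SE 0.08) fell. The thalamic homeobox gene Gbx2 stood between 0.0800 and 0.880 CPM in the 6 libraries and did not pass (adjusted p = 0.325).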

How the data were processed

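RNA-seq of 3 IP and 3 Input libraries from adult thalamus was analysed, grouped by the sample-type label. The deposited values are raw read counts per gene symbol; alignment to mm10 used STAR 2.0.0e and counting used HTSeq, per the submitters' processing notes, where HTSeq's version, strand setting and annotation are not given in the sources used here. Counts tied to no gene made up 53.2 to 59.8% of all counts in a library and were left out. Most were alignments that were not unique, 43.2 to 49.7% of all counts in IP and 32.7 to 34.0% in Input. Ambiguous counts made up 1.32 to 1.58% in IP and 5.47 to 6.60% in Input. The test was run in edgeR 4.0.16 under R 4.3.3 (filterByExpr with a minimum count of 10, TMM scaling, robust quasi-likelihood F-test, Benjamini-Hochberg over 16898 genes, threshold 0.05). CPM are TMM-scaled, and SE were derived from the F statistic. Replicates differed by more than sampling noise (chi-square per degree of freedom 11.8 to 134). Exact intervals and floors (3 counts over a group) cover counting error only. Exon lengths and positions are from GENCODE vM21 of the same build.

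The members and lists were chosen with earlier results of these data known. A few members are not reported here; the other tested members are named, and values per library are given for members whose mean reached 2 CPM and for the most significant of each family; of each partner list the 2 most significant called genes in each direction at that level are named. Values per library of other members, and Gbx2, were given after they were seen. Alternatives were upper-quartile scaling, library totals, DESeq2 1.42.0, limma-voom (limma 3.58.1), no filter, a filter of 1 CPM, a replicate block, the table without the ribosomal RNA precursor Rn45s, and leaving out each library and each replicate number. The test was tried on simulated counts.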

Additional observations from a re-analysis of the deposited data

How the results depend on the processing

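Over 17 alternatives, 6 of the 7 higher members (all but Lhx9) and 20 of the 31 lower members kept their call wherever they were tested. The alternatives with all 6 libraries called 6 to 8 members higher and 27 to 35 lower; leaving out 1 library or replicate number gave 6 to 8 higher and 23 to 37 lower. For the partner genes these gave 8 to 12 higher and 11 to 24 lower (10 and 19 with all libraries), with 11 lower without replicate number 3. Without replicate number 3, 22 of the 31 lower members kept their call. Upper-quartile scaling and library totals shifted the median of all genes by -0.18 and -0.24, and higher genes then made up 36.7% and 31.9% of all calls (48.9% with TMM) and 15.4% and 15.0% of the calls among members (18.4% with TMM). Of the members reported singly, 6 turned sign, all without a call with all libraries. Leaving out 1 library or replicate number gave ranges of -4.53 to 1.57 for Lmx1b (negative without replicate 3 of IP or of both groups, -4.53 and -4.45), -1.91 to 0.10 for Nkx2-1 (positive without Input replicate 1), -2.42 to 0.11 for Nkx6-1 (positive without replicate number 3), -0.94 to 1.89 for Pax8 (positive without IP replicate 2, Input replicate 2 or both, 0.44, 1.35 and 1.89) and -0.40 to 0.20 for Pou2f2. Lmx1b also turned with limma-voom (-2.26) and the replicate block (-2.10), Pax8 with the block (0.34), and Pou3f2 (-0.048) under library totals. The cause was not tested. Replicate numbers are also sequencing lanes, and the main fit did not take them as pairs. Deviations of same-numbered IP and Input libraries correlated by 0.06, 0.04 and 0.01 over genes. This does not settle the pairing, because replicate 1 stood apart in both groups for Nkx2-1 and the hypothalamic and choroid plexus markers. Whether same-numbered libraries share an origin was not tested. With the replicate block 7 members were higher and 33 lower. Members below 1 CPM rest on few counts, and Input replicate 1 had the fewest counts.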

Other observations

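Several members have a transcript on the opposite strand that carries the member's symbol and a suffix for opposite strand or antisense. Of 11 such symbols in the files, 6 had enough counts to be tested, several of them through Input alone, so that their direction was fixed by the filter and their number is no result. Without the strand setting of the counting, reads of such a transcript and of its member cannot be told apart where they overlap. Emx2os had 2.10, 0.719 and 0.0941 CPM in IP and 5.33, 3.85 and 5.82 CPM in Input (log2FC -2.35, SE 0.82, adjusted p = 0.0400). Lhx1os had 1.28, 0.349 and 1.53 CPM in IP and 6.93, 4.85 and 5.76 CPM in Input (-2.47, SE 0.54, adjusted p = 0.00484). Six3os1 fell as well (-3.06, SE 0.93, adjusted p = 0.0224). Otx2os1 and Dlx6os1 held 0 counts in every IP library and 51 and 74 in Input, and Nkx2-2os 1 count in IP and 66 in Input. These transcripts were chosen after the data were seen.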
